A study of Equus caballus with 24 samples.

Results

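The striated muscle sarcomere genes were taken as 10 genes, CKM, ACTA1, ACTN2, TNNC2, TNNT3, MYLPF, MYH7, TTN, NEB and DES, each matched by its symbol in the gene name column of both deposited tables. In all, 9 of the 10 were listed among the 24232 genes of the count table. No gene carried the symbol MYH7. The tables did list a gene under the symbol MHC-1 with the description myosin-7, and its values are given beside the members without counting it as one. The question put to these genes was whether muscle RNA was present in the sampled pieces, and in which libraries. The genes were chosen by their read counts and RPKM in these libraries, so their levels and fold changes are given as a description with no test. Tests are given for 56 other striated muscle genes and for some marker genes of other tissues. These lists were also chosen with earlier results of these data known.

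The series holds 24 libraries of rRNA-depleted RNA from 12 female horses, the small Debao pony (DP) and the taller Mongolian horse (MH). Each animal group of 3 was either juvenile or adult, and the pituitary gland and the epiphysis of a long bone were sampled. The 8 groups of 3 libraries are juvenile and adult DP pituitary (DPPJ, DPPA), juvenile and adult MH pituitary (MHPJ, MHPA), juvenile and adult DP long bone (DPLBJ, DPLBA) and juvenile and adult MH long bone (MHLBJ, MHLBA). No group carried a treatment or an engineered allele, and the animals were slaughterhouse animals from which whole pieces of tissue were frozen. Each library is therefore a bulk piece, in which fewer cells of a type and less RNA per cell cannot be told apart.

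The sarcomere is the contractile unit of skeletal and heart muscle. Thin filaments of skeletal actin (ACTA1) slide along thick filaments of myosin, whose regulatory light chain in fast fibres is MYLPF. Calcium binding to troponin C (TNNC2 in fast fibres), held on the thin filament by troponin T (TNNT3 in fast fibres), starts the contraction. Titin (TTN) and nebulin (NEB) are the giant proteins that set the length of the filaments, alpha-actinin 2 (ACTN2) anchors thin filaments at the Z-disc, desmin (DES) is the intermediate filament that ties Z-discs together, and the muscle creatine kinase (CKM) rebuilds ATP beside them. Neither a pituitary gland nor an epiphysis is a muscle, but muscle, tendon and blood vessels lie close to a long bone.

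Library totals ran from 11433209 to 27007342 reads. The 3 lowest were those of MHPJ replicate 2, MHLBA replicate 3 (11616518) and MHLBJ replicate 1 (12103499), and the next was DPLBJ replicate 1 at 13922477. The 3 lowest are the libraries found below to be rich in the members, and the part of depth in this was not tested. The hormone genes that define the anterior pituitary were near 0 in 5 of the 12 pituitary libraries. In RPKM (reads scaled by gene length and library size), growth hormone (GH) was 6.47 in DPPA replicate 1, 0.00, 3.36 and 0.12 in the 3 MHPJ libraries and 0.33 in MHPA replicate 1. In the other 7 pituitary libraries it was at least 6597 RPKM. Bone matrix genes marked every long bone library, with osteopontin (SPP1) from 1806 to 14899 RPKM.

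**Figure D1:**
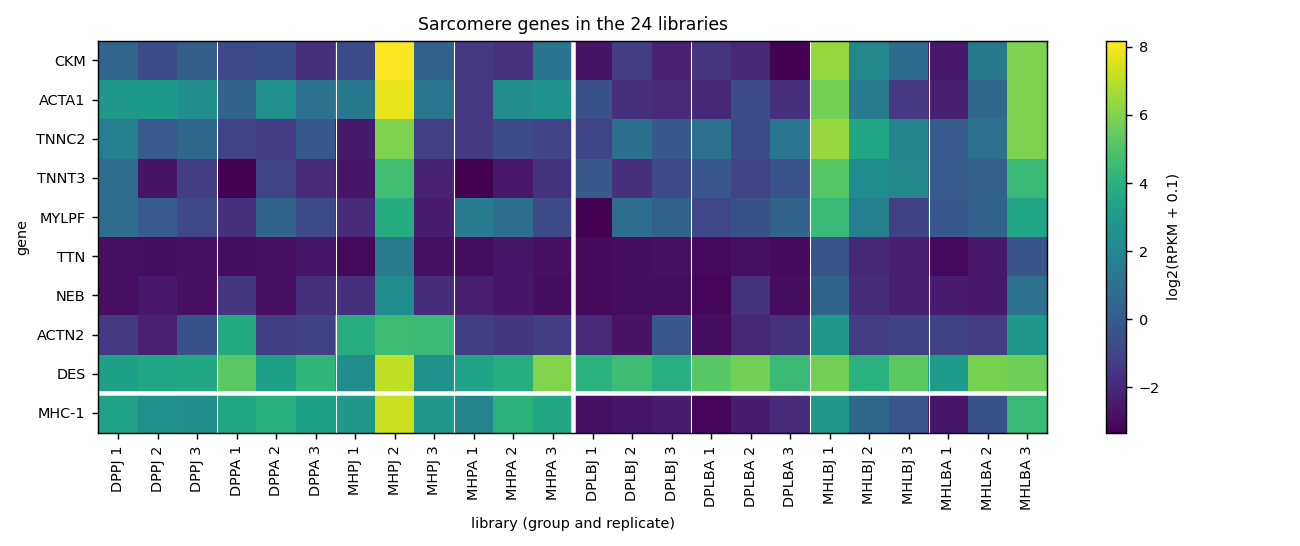
Heat map of the 9 members found and of MHC-1 (rows) in the 24 libraries (columns, group and replicate), coloured by log2(RPKM + 0.1), with pituitary libraries left and long bone libraries right of the thick line. MHPJ 2, MHLBJ 1 and MHLBA 3 stand out in nearly every row, whereas ACTN2 and DES are also high in other libraries.

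CKM (ENSECAG00000022433) separated the libraries most clearly. In pituitary it was 1.25, 0.53 and 1.03 RPKM in DPPJ, 0.48, 0.57 and 0.19 in DPPA, 0.50, 289 and 1.12 in MHPJ and 0.29, 0.21 and 2.13 in MHPA. In long bone it was 0.05, 0.32 and 0.11 RPKM in DPLBJ, 0.23, 0.14 and 0.00 in DPLBA, 81.9, 3.91 and 1.59 in MHLBJ and 0.07, 2.44 and 61.2 in MHLBA. A single pituitary library and a pair of long bone libraries were therefore high, all from MHs, and each stood apart from the other libraries of its own group. The read counts behind these values were 5707 in MHPJ replicate 2, 1676 in MHLBJ replicate 1 and 1189 in MHLBA replicate 3. In the other 11 pituitary libraries CKM had 5 to 49 reads, and in the other 10 long bone libraries 0 to 136 reads. On the scale of CPM (reads scaled by library size and TMM factor), CKM in MHPJ replicate 2 was 594 times the median of the other 11 pituitary libraries.

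The skeletal actin ACTA1 (ENSECAG00000000207) followed the same 3 libraries, at 222 RPKM in MHPJ replicate 2, 54.5 in MHLBJ replicate 1 and 59.4 in MHLBA replicate 3. It differed from CKM in the rest. In the other 11 pituitary libraries it ran from 0.28 to 7.53 RPKM, and the 3 DPPJ libraries held 7.22, 7.53 and 4.90, while in the other 10 long bone libraries it stayed between 0.10 and 2.51.

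The fast troponins were the members highest in long bone relative to pituitary. TNNC2 was 85.5, 10.9 and 3.41 RPKM in MHLBJ, 0.88, 1.92 and 60.6 in MHLBA, 0.43, 1.76 and 0.83 in DPLBJ and 1.94, 0.54 and 2.16 in DPLBA. All 3 MHLBJ libraries lay above all 6 DP long bone libraries, and 2 of the 3 MHLBA libraries lay within their range. In pituitary TNNC2 was 59.2 RPKM in MHPJ replicate 2 and at most 3 RPKM in the other 11 libraries. TNNT3 was 36.9, 4.76 and 3.93 RPKM in MHLBJ, 0.92, 1.06 and 21.1 in MHLBA and 0.20 to 0.84 in the 6 DP long bone libraries. Every MH long bone library thus exceeded every DP one, though only by 0.92 against 0.84 at the closest. The share of all genes that separate in this way was not counted, nor was it for the separations of TNNC2, TTN and MHC-1 from the 6 DP libraries. In pituitary TNNT3 had 295 reads in MHPJ replicate 2 and at most 3 reads in 8 of the other 11 libraries. The fast light chain MYLPF was lower than both troponins in these 3 libraries, at 13.8 RPKM in MHPJ replicate 2, 21.9 in MHLBJ replicate 1 and 10.7 in MHLBA replicate 3, against at most 3.05 in the other 21 libraries.

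The giant filament genes gave low RPKM but many reads, because the listed length of TTN is 106731 bases and that of NEB 21315 bases. TTN held 4528 reads in MHPJ replicate 2 and 55 to 160 reads in the other pituitary libraries. In long bone it held 1213, 472 and 285 reads in MHLBJ, 63, 254 and 1282 in MHLBA, 40, 76 and 94 in DPLBJ and 49, 121 and 45 in DPLBA. In CPM the 3 MHLBJ libraries, at 92.1, 22.1 and 14.2, lay above every DP long bone library, of which the highest was 6.16. NEB held 1631 reads in MHPJ replicate 2, 429 in MHLBJ replicate 1 and 641 in MHLBA replicate 3. Outside these 3, NEB had its highest counts in DPPA replicate 1 (154 reads) and DPLBA replicate 2 (139 reads).

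**Figure D2:**
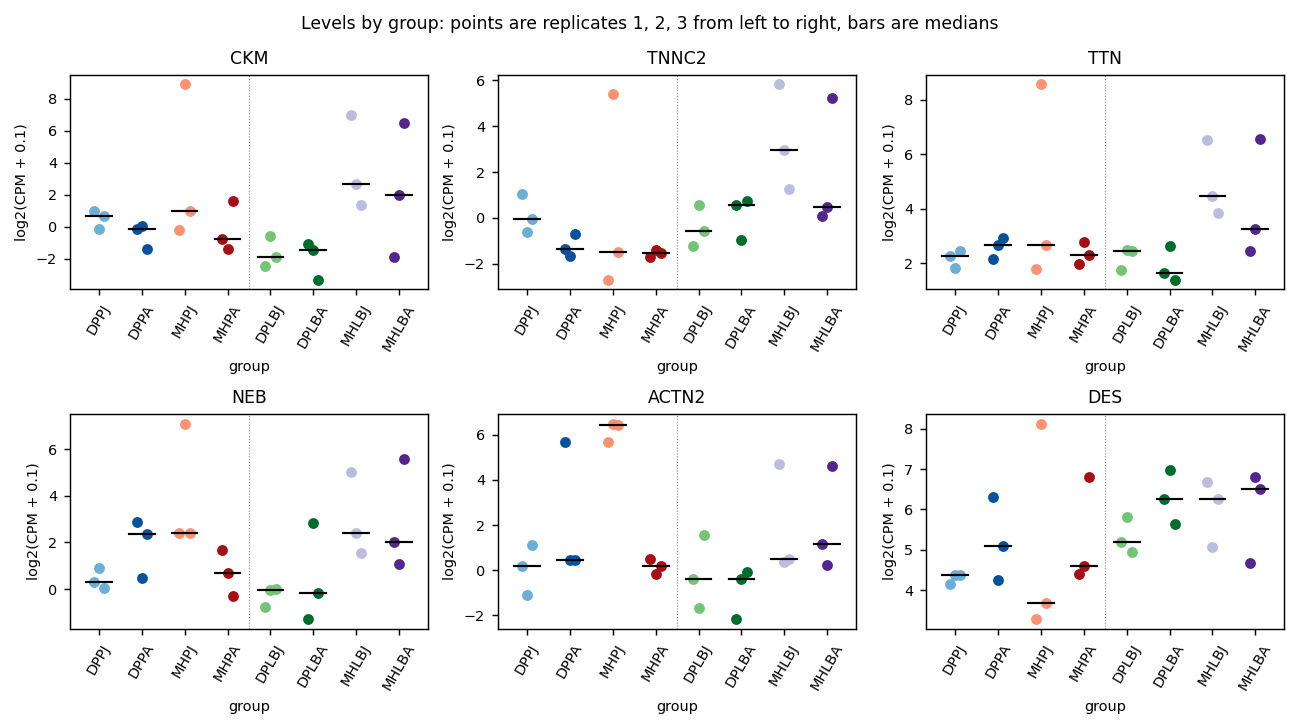
Levels of 6 members in log2(CPM + 0.1) by group; points are replicates 1 to 3 from left to right, and the short black bar is the group median. CKM, TNNC2 and TTN have 1 library far above the others in each of MHPJ, MHLBJ and MHLBA, and all 3 MHLBJ libraries lie above every DP long bone library. ACTN2 is high in all 3 MHPJ libraries and in DPPA 1, and DES is spread over every group.

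ACTN2 (ENSECAG00000009009) did not follow CKM in pituitary. It was 14.4, 23.5 and 22.1 RPKM in MHPJ and 13.0 in DPPA replicate 1, and 0.11 to 0.62 in the other 8 pituitary libraries. In MHPJ replicates 1 and 3 and DPPA replicate 1 CKM was 0.50, 1.12 and 0.48 RPKM, so these libraries held ACTN2 near the level of the library rich in the other members, and little CKM. The same 3 libraries were poor in hormone genes and held 103 to 192 RPKM of the synaptic vesicle gene SYT1 and 892 to 3609 RPKM of the astrocyte filament gene GFAP. MHPA replicate 1, also poor in hormone genes and at 2418 RPKM of GFAP, held ACTN2 at only 0.34 RPKM and SYT1 at 18.8 RPKM. ACTN2 is also known as a protein of neuronal synapses, and the part of nervous tissue in its level was not tested. In long bone ACTN2 was 7.26 RPKM in both MHLBJ replicate 1 and MHLBA replicate 3 and at most 0.77 in the other 10 libraries.

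DES (ENSECAG00000013832) was detected in every library with at least 176 reads. It reached 134 RPKM in MHPJ replicate 2, but the next pituitary library was MHPA replicate 3 at 63.7, where CKM was 2.13 RPKM. In long bone DES was 16.2, 24.4 and 15.1 RPKM in DPLBJ, 36.7, 53.4 and 22.9 in DPLBA, 52.8, 16.2 and 38.8 in MHLBJ and 8.01, 55.6 and 49.9 in MHLBA, and its highest CPM there was in DPLBA replicate 2. The levels of DES ran with those of some smooth muscle genes. Over the 24 libraries, which share these tissues and their depth, Pearson's r of log2 CPM was 0.86 between DES and TAGLN and 0.82 between DES and ACTA2, the smooth muscle actin. Over all 9 smooth muscle genes it ran from 0.38 for SYNPO2 to 0.86 for TAGLN. It was 0.51 between DES and CKM and 0.07 between DES and ACTN2. For comparison, r was 0.92 between CKM and TTN and 0.93 between TNNC2 and TNNT3.

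**Figure D3:**
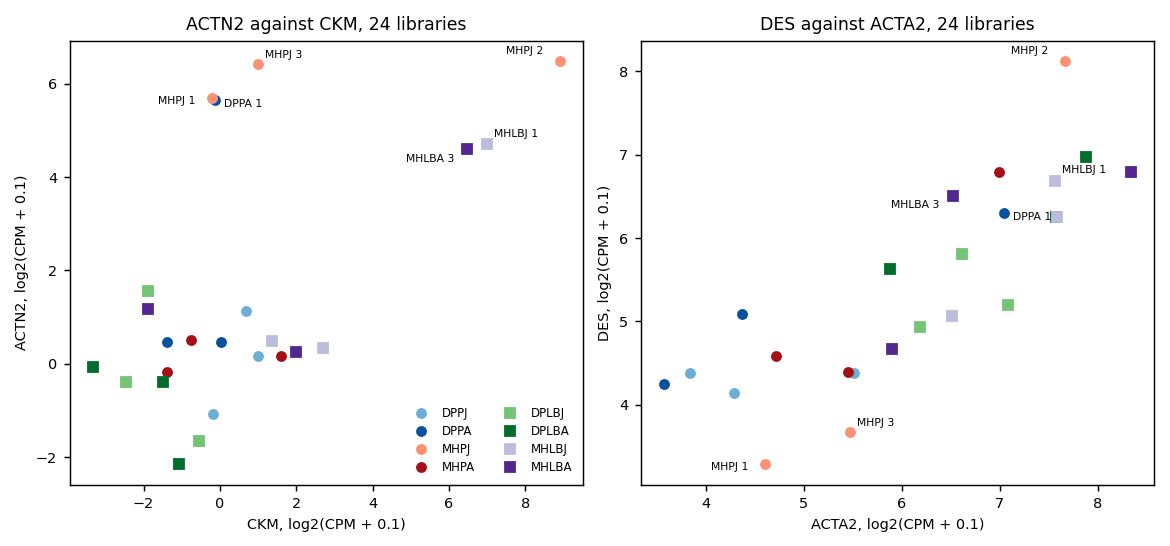
ACTN2 against CKM and DES against ACTA2 in the 24 libraries, each in log2(CPM + 0.1), with circles for pituitary and squares for long bone. On the left MHPJ 1, MHPJ 3 and DPPA 1 have high ACTN2 with low CKM, and on the right DES and ACTA2 lie along a common slope, with r of 0.82.

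MHC-1 (ENSECAG00000019844), described in the files as myosin-7, the heavy chain of slow fibres and heart, was 7.40, 151 and 7.28 RPKM in MHPJ and 3.43 to 17.2 in the other 9 pituitary libraries. In long bone it was 7.25, 1.40 and 0.78 RPKM in MHLBJ, 0.06, 0.62 and 22.0 in MHLBA and at most 0.16 in the 6 DP libraries. All 3 MHLBJ libraries therefore exceeded every DP long bone library, while in pituitary it was present in every library. A second gene, listed as MYHC-ALPHA (ENSECAG00000021104) and described as myosin-6, the heavy chain of the atrium, was 24.7 RPKM in MHPJ replicate 2 and at most 2.81 in the other 23 libraries. Myosin heavy chain genes are closely similar paralogs, and how the counting shared reads between them is not given in the sources used here, so these levels are uncertain. RefSeq gives MyHC-alpha as another name of MYH7, so which of the 2 genes is the slow heavy chain is also uncertain.

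The 7 members other than ACTN2 and DES summed to 1455 CPM in MHPJ replicate 2, 445 CPM in MHLBJ replicate 1 and 383 CPM in MHLBA replicate 3. They summed to 52.2 CPM in MHLBJ replicate 2, 26.1 in MHLBJ replicate 3 and 20.6 in MHLBA replicate 2, against 6.26 to 15.8 CPM in the 6 DP long bone libraries and 13.0 in MHLBA replicate 1. Between breeds, 5 of the 6 MH long bone libraries were above every DP one, and they spanned the range from 20.6 to 445 CPM.

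The breed comparison in juvenile long bone addressed whether ponies and horses differ in the growing bone. All 9 members had lower levels in DPs. Their median log2 fold change was -4.14 (DP minus MH), beside a median of 0.05 over the 13755 genes tested. For CKM the mean of the 3 DPLBJ libraries was 0.278 ± 0.265 CPM (SD, n = 3). Against this stood 45.4 ± 71.0 CPM (SD, n = 3) for MHLBJ, and the log2 fold change was -7.32 (SE 1.82). For 5 members, CKM, TNNC2, TNNT3, TTN and NEB, every DP library lay below every MH library, and 12.3% of all genes tested did so. Without MHLBJ replicate 1 the log2 fold change of CKM was -3.92, that of TNNC2 went from -4.85 to -2.66, that of TTN from -3.18 to -1.91 and that of ACTN2 from -2.93 to 0.03.

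Of the 56 other striated muscle genes, 41 were tested there by edgeR and 17 were DEGs, at an unadjusted P under 0.05 with a fold over 2. Of these, 15 were lower and 2 higher in DPs, and 13.8% of all genes tested were DEGs, 5.47% lower in DPs. None had an adjusted p under 0.05 (0.00% of all genes tested did), with 17 at an unadjusted P under 0.05 by edgeR and 17 DEGs by DESeq2. For 7 of the 17, MYH2, CASQ1, ACTN3, MYBPC1, XIRP2, KLHL40 and MYPN, every DP library had under 10 reads, so that they passed the count filter through the MH libraries alone and could only be lower in DPs. The fast fibre genes held 4 of the DEGs, all lower in DPs. MYH2, the fast oxidative myosin heavy chain, had 0, 1 and 1 reads in DPLBJ and 1914, 193 and 53 in MHLBJ. CASQ1, the calcium store protein of fast fibres, had 0, 0 and 4 reads in DPLBJ and 144, 46 and 13 in MHLBJ. MYL1, the fast essential light chain, was at a log2 fold change of -5.82, from 2, 0 and 11 reads in DPLBJ and 592, 54 and 7 in MHLBJ. The slow fibre genes held 3, all lower in DPs, among them TNNC1, the slow and cardiac troponin C, at -3.07. CAPN3, a muscle protease, and JPH1, which joins the calcium store to the cell membrane, were the 2 higher in DPs, at 4.02 and 1.53. CAPN3 was 17.7 and 5.66 RPKM in DPLBJ replicates 2 and 3, the libraries of that group with 668 and 1984 RPKM of the cartilage collagen COL2A1, and 0.20 in DPLBJ replicate 1 with 0.88 RPKM of COL2A1.

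Without MHLBJ replicate 1 the count of DEGs fell to 8, of which 7 were among the 17. Over all genes the DEGs fell as well, from 1899 of 13755 tested to 1309 of 14322. The 10 no longer called were MYL1, MYL3, MYBPC1, NRAP, CMYA5, ACTN3, KLHL41, LDB3, CAPN3 and JPH1. In the same comparison all 6 adipocyte genes tested were DEGs and lower in DPs, and their summed level was 1833 to 4108 RPKM in DPLBJ and 7448 to 9503 RPKM in MHLBJ. All 9 smooth muscle genes tested had lower levels in DPs, at a median of -1.48 on the log2 scale, and 3 were DEGs. Of 9 bone and cartilage genes tested, 8 had higher levels in DPs and 4 of them were DEGs. The part of fat, vessel, bone and cartilage content in the muscle gene difference was not tested.

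In adult long bone, 8 members were tested, and the median log2 fold change was -3.40 (DP minus MH). CKM did not pass the count filter, which a gene high in 1 library can fail. Its mean was 0.209 ± 0.190 CPM (SD, n = 3) in DPLBA and 30.9 ± 50.1 CPM (SD, n = 3) in MHLBA. ACTA1 was 0.15, 0.52 and 0.19 RPKM in DPLBA and 0.10, 1.33 and 59.4 in MHLBA, a log2 fold change of -5.89 (SE 1.91). Its groups overlapped, because MHLBA replicate 1, with 3 reads, lay among the DP libraries. That library stood apart in other ways, with a TMM factor of 0.60 against 0.87 to 1.24 in the other 23 libraries and the lowest long bone sums of adipocyte, smooth muscle and tendon genes, at 717, 121 and 27.5 RPKM. Only ACTN2 and TNNT3 had every DP library below every MH library, and 12.9% of all genes tested did so. Without MHLBA replicate 3 the log2 fold change of ACTA1 went to -1.27, that of TNNC2 from -3.63 to -0.08 and that of NEB from -2.76 to -0.19.

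Of 36 other striated muscle genes tested in adult long bone, 7 were DEGs, 5 lower and 2 higher in DPs, while 18.3% of all genes tested were, 8.03% lower in DPs. The lower genes were the slow fibre genes MYBPC1 and TNNC1, at log2 fold changes of -5.92 and -2.81, the actin-binding XIRP2 at -5.34, the Z-disc gene LDB3 at -2.72 and STAC3, a partner of the calcium channel of the muscle membrane, at -1.31. For XIRP2 every DP library had under 10 reads, so that it passed the count filter through the MH libraries alone and could only be lower in DPs. CAPN3 was higher in DPs, at 3.37 (SE 0.45), and it was the 1 gene with an adjusted p under 0.05 (edgeR adjusted p = 0.0223), as 2.24% of all genes tested had. MYOM2, an M-band protein, was also higher in DPs, at 2.04. Of the 9 bone and cartilage genes tested, 8 had higher levels in DPs and 4 were DEGs, and their sum was lowest of all long bone libraries in MHLBA replicate 3, at 2568 RPKM. The 9 smooth muscle genes tested had a median log2 fold change of -0.43 and 2 were DEGs, lower in DPs. Among the others, ACTA2, SMTN and ACTG2 hardly differed, at -0.0014, -0.06 and -0.12. The part of these tissues in the muscle gene difference was not tested. Without MHLBA replicate 3 the count was 4, of which 3 were among the 7, and MYBPC1, TNNC1, XIRP2 and STAC3 were not called. Without MHLBA replicate 1, the library with the lowest level of muscle genes in its group, the count was 11, of which 10 were lower in DPs. Over all genes 2568 of 14451 tested were DEGs without MHLBA replicate 3 and 2541 of 14505 without MHLBA replicate 1, against 2580 of 14073 with both.

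**Figure D4:**
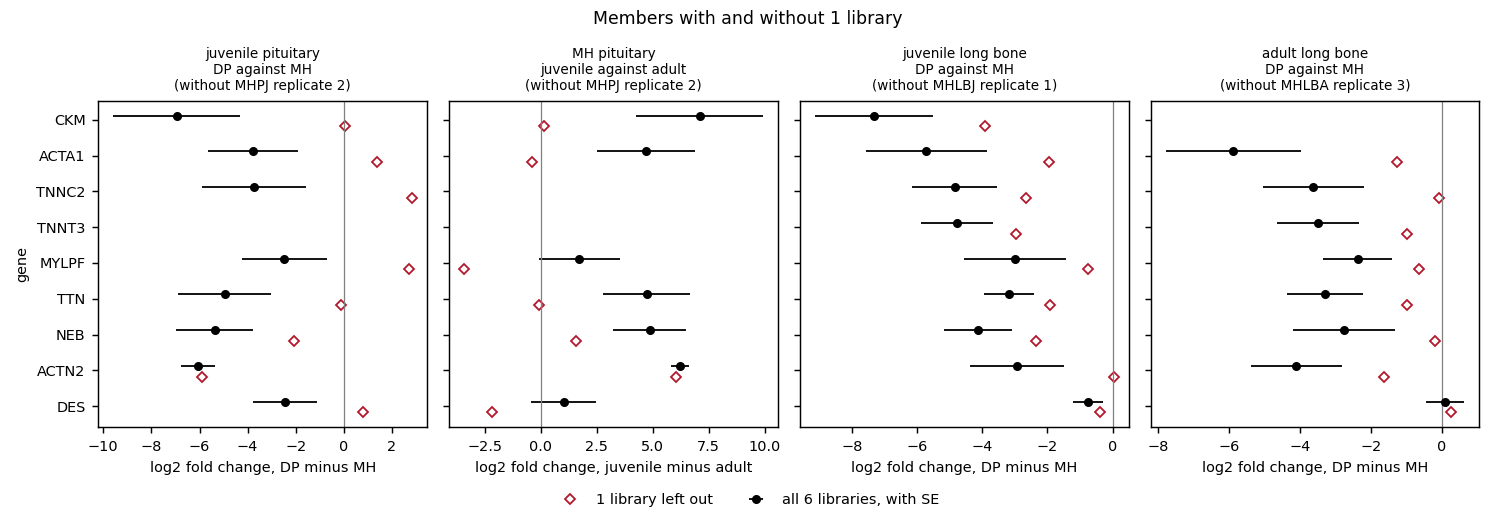
Log2 fold changes of the members in 4 comparisons (black points with SE, 3 libraries a group) and the same without the library richest in muscle genes (red diamonds, no error drawn); a member with no point had too few reads to be fitted. Without MHPJ replicate 2, CKM, ACTA1, TNNC2, MYLPF, TTN and DES change sign or lie near 0 in juvenile pituitary, whereas ACTN2 stays at -5.89.

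In juvenile pituitary, 8 members were tested, without TNNT3, and all 8 were lower in DPs. Their median was -4.37 on the log2 scale, beside -0.07 over all 14603 genes tested. CKM was at -6.95 (SE 2.64). Its mean was 1.40 ± 0.563 CPM (SD, n = 3) for DPPJ and, with an SD larger than the mean, 161 ± 277 CPM (SD, n = 3) for MHPJ. Only ACTN2 and NEB had every DP library below every MH library, and 16.7% of all genes tested did so. Without MHPJ replicate 2 the fold changes of ACTA1, TNNC2, MYLPF, DES and CKM were 1.36, 2.84, 2.72, 0.79 and 0.05, so that their direction rested on that library. TTN went from -4.95 to -0.11. ACTN2 kept a log2 fold change of -5.89 and NEB one of -2.06 without it. The comparison also set hormone-rich DP libraries against MH libraries with hormone genes near 0. All 6 hormone genes tested were DEGs and higher in DPs. Their MHPJ means were 0 CPM for TSHB, 0.03 for FSHB, 0.08 for POU1F1, 0.36 for PRL, 0.90 for POMC and 1.19 for GH. At least TSHB, FSHB and POU1F1 passed the count filter through the DP libraries alone, so that their direction was fixed. The part of the hormone-rich tissue in the values of the members was not tested.

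Of 40 other striated muscle genes tested in juvenile pituitary, 25 were DEGs, 24 lower and 1 higher in DPs, while 20.3% of all genes tested were DEGs, 12.7% lower in DPs. All 5 slow fibre genes tested were DEGs and lower in DPs, with MYBPC1, a myosin-binding protein, at a log2 fold change of -7.04 (SE 1.86, edgeR adjusted p = 0.0634), TNNI1 at -6.29, TNNC1 at -4.28 and TNNT1 at -3.96. All 16 Z-disc, M-band and filament genes tested had lower levels in DPs and 11 were DEGs, with NRAP at -7.25. MYOT, a Z-disc protein, had 2, 0 and 2 reads in DPPJ and 48, 1024 and 10 reads in MHPJ. Of the 12 excitation-contraction and energy genes tested, 9 had lower and 3 higher levels in DPs. The DEGs were 6 of those lower and, of those higher, CHRNA1, a subunit of the muscle acetylcholine receptor. An adjusted p under 0.05 was reached by 4 genes, as by 10.7% of all genes tested. They were TRIM54, a ligase of the muscle filaments, with 0 reads in every DPPJ library and 21, 161 and 163 reads in MHPJ (edgeR adjusted p = 0.0469), PYGM, the muscle glycogen phosphorylase, at -3.61 (edgeR adjusted p = 0.0398), CMYA5 at -4.02 (edgeR adjusted p = 0.0422), and RYR1, the calcium release channel, at -2.01 (edgeR adjusted p = 0.0494).

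For 5 of the 25, CHRNA1, MUSK, MYOT, MYPN and TRIM54, every library of the lower group had under 10 reads. They passed the count filter through the other group alone, so that their direction was fixed, also for TRIM54 with its adjusted p under 0.05. The 25 calls did not all follow the library rich in the members. Without MHPJ replicate 2, 27 genes were DEGs, 22 of them among the 25, and KLHL40, LDB3 and MYL3 were not called. Over all genes the DEGs rose as well, from 2962 of 14603 tested to 4505 of 15071. PYGM was 7.96, 6.45 and 8.32 RPKM in MHPJ and 0.71, 1.28 and 0.14 in DPPJ, and it was also 6.65 in DPPA replicate 1 and 4.53 in MHPA replicate 1, both poor in hormone genes. RYR1 was 1.64, 1.07 and 3.28 RPKM in MHPJ, lowest in the library richest in CKM, and 0.68, 0.59 and 0.43 in DPPJ. NRAP by contrast was 0.20, 26.0 and 0.13 RPKM in MHPJ and 0.08, 0.05 and 0.07 in DPPJ. The genes of these lists thus fell into some that were high in all 3 MHPJ libraries and some that were high in replicate 2.

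Juvenile against adult MH pituitary used the same 3 MHPJ libraries. Of the members, 7 were tested and all had higher levels in juveniles. The median was 4.73 on the log2 scale (juvenile minus adult) and CKM was at 7.09 (SE 2.83). All 3 hormone genes tested were DEGs and lower in juveniles, where GH, POMC and PRL had means of only 1.19, 0.90 and 0.36 CPM. Of 9 smooth muscle genes, 2 were DEGs and higher in juveniles. The part of hormone and smooth muscle tissue in the values of the members was not tested. ACTN2 and NEB had every juvenile library above every adult one, and 7.01% of all genes tested did so. Without MHPJ replicate 2, CKM went to 0.13, TTN to -0.08 and MYLPF to -3.43, while ACTN2 was at 6.05. Of 40 other striated muscle genes tested, 13 were DEGs and all were higher in juveniles, while 7.74% of all genes tested were DEGs, 4.50% higher in juveniles. For 3 of the 13, ACTN3, TRIM54 and TRIM63, every adult library had under 10 reads. They passed the count filter through the juvenile libraries alone and could only be higher in juveniles. None of the 40, and 0.00% of all genes, had an adjusted p under 0.05, with 13 at an unadjusted P under 0.05 by edgeR and 16 DEGs by DESeq2. MYBPC1 was at 6.56, NRAP at 6.25 and the fast myosin MYH1 at 3.07. Without MHPJ replicate 2, 11 genes were called, 8 of them among the 13, while DEGs over all genes went from 1117 of 14430 tested to 2119 of 14794.

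The 3 comparisons that did not use a library rich in the members gave 1, 4 and 3 calls, where 2.93%, 3.56% and 3.14% of all genes tested were DEGs. MH long bone, which held such libraries, gave 1 call as well. In adult pituitary, DP against MH, 7 members had a median log2 fold change of -0.13, although ACTN2 was at 4.10 (SE 1.62) through DPPA replicate 1. Of 34 other striated muscle genes tested, 1 was a DEG, CACNA1S, the voltage sensor of the muscle membrane, at -4.15 (SE 0.66, edgeR adjusted p = 0.360), while 2.93% of all genes tested were. CACNA1S was 0.10, 0.07 and 0.05 RPKM in DPPA and 0.46, 2.14 and 2.04 in MHPA. With the replicate number as a block, 5 were DEGs, 2 higher and 3 lower in DPs, while 593 of all 14376 genes tested were.

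In DP pituitary, juvenile against adult, 8 members had a median log2 fold change of 0.03, and TNNC2, at 3, 0.88 and 1.40 RPKM in juveniles and 0.40, 0.32 and 0.83 in adults, was the member whose groups did not overlap, as for 12.8% of all genes in that direction. Of 34 other striated muscle genes tested, 4 were DEGs, with TNNT1, CMYA5 and CAPN3 lower in juveniles by 1.02, 1.32 and 1.14 on the log2 scale and CACNA1S at 1.61, while 3.56% of all genes tested were. In DP long bone, juvenile against adult, CKM and ACTA1 had too few reads to be fitted and 7 members had a median of -0.24. Of 31 other genes tested, 3 were DEGs and lower in juveniles, the slow light chain MYL3 at -2.22, KLHL41 at -1.51 and NRAP at -1.40, while 3.14% of all genes were DEGs. None of the genes tested in either DP comparison had an adjusted p under 0.05 (0.00% of all genes), with 6 and 3 genes at an unadjusted P under 0.05 by edgeR and 5 and 4 DEGs by DESeq2 in the pituitary and long bone comparisons.

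In MH long bone each stage held 1 library rich in the members, and the stages did not differ by more than their spread. CKM was 45.4 ± 71.0 CPM (SD, n = 3) in juveniles and 30.9 ± 50.1 CPM (SD, n = 3) in adults, a log2 fold change of 0.59 (SE 1.89), and the median over 9 members was 0.24. Of 47 other striated muscle genes tested, 1 was a DEG, MYH1, at 5.12 (SE 1.97, edgeR adjusted p = 0.998), while 2.91% of all genes tested were. MYH1 was 6.47, 0.29 and 0.05 RPKM in MHLBJ and 0.01, 0.01 and 0.20 in MHLBA. Without MHLBA replicate 3, CKM was at 4.43 and 10 genes were called. Without MHLBJ replicate 1, CKM was at -2.80 and no gene was called. With both left out, 4 genes were called, all higher in juveniles, and MYH1 was not tested. In the order of these fits, DEGs over all genes tested were 778 of 14366, 359 of 14483 and 502 of 14188, against 404 of 13899 with no library left out.

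Between tissues, over all 8 groups, the members did not move one way. By the study's methods both tissues came from the same 12 animals, and the 24 libraries were fitted as independent. The median log2 fold change was 0.17 (long bone minus pituitary), with TNNT3 and TNNC2 at 2.15 (SE 0.87) and 1.88 (SE 0.82), ACTA1 at -1.69 (SE 0.91) and CKM at -0.29 (SE 0.98). The median was 1.35 without MHPJ replicate 2, -0.41 without MHLBA replicate 3 and -0.14 without MHLBJ replicate 1. Of 53 other striated muscle genes tested, 19 were DEGs, 8 higher and 11 lower in long bone, while 38.9% of all genes tested were. The higher ones included TNNI2, the fast troponin I, at 3.66, MYL3 at 3.03, NRAP at 2.58 and CMYA5 at 2.20, and the lower ones MYOM2 at -2.30, RYR1 at -1.54, JPH1 at -1.48 and PYGM at -1.41. With the replicate number within breed and stage as a block, 17 were DEGs, and PYGM, MUSK and TNNC1 were not called, while 6102 of all 16131 genes tested were DEGs. Without MHPJ replicate 2 the direction of CKM turned to 1.44, and 27 genes were called, 18 higher and 9 lower in long bone. Without all 3 libraries rich in the members, 26 genes were called, 9 higher and 17 lower. Over all genes tested, 6624 of 16502 were DEGs without MHPJ replicate 2 and 6580 of 16425 without all 3, against 6282 of 16131 with all 24 libraries.

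The 3 libraries rich in the members were also rich in most other striated muscle genes. Of the 56, 44 had their highest pituitary CPM in MHPJ replicate 2, where all 9 members did too. So did 6 of 9 smooth muscle genes, 4 of 6 adipocyte genes, 3 of 5 tendon genes and 1 of 8 heart genes. The share of all genes highest in that library was not counted, so the 44 cannot be read as particular to muscle. In long bone 22 of the 56 were highest in MHLBJ replicate 1 and 21 in MHLBA replicate 3, against 0 in MHLBJ replicate 2. Their summed level was 1447 RPKM in MHPJ replicate 2 against 70.2 to 225 in the other pituitary libraries, and 441 and 505 in MHLBJ replicate 1 and MHLBA replicate 3 against 40.0 to 158 in the other long bone libraries. The acetylcholine receptor subunits of the nerve-muscle junction were near 0 in all 3. CHRNA1 was 0.00, 0.13 and 0.04 RPKM in these 3 libraries and CHRND 0.00, 0.04 and 0.08.

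The 3 libraries differed in the fibre type of the genes. Slow and fast counterparts were paired by protein family after their values were seen, which gave troponin C (TNNC1 and TNNC2), troponin I (TNNI1 and TNNI2), troponin T (TNNT1 and TNNT3), a myosin heavy chain (MHC-1 and MYH2) and both light chains (MYL3 and MYL1, MYL2 and MYLPF). In MHPJ replicate 2 the slow gene was the higher in 6 of the 6 pairs, and the 6 slow genes summed to 969 RPKM against 164 RPKM for the 6 fast genes. Its largest slow signals were TNNT1 at 238 RPKM and TNNC1 at 223 RPKM, of which the other pituitary libraries held at most 31.4 and 19.0. In MHLBJ replicate 1 the slow gene was the higher in 1 of 6 pairs, and the slow sum was 91.0 RPKM against a fast sum of 267 RPKM. There TNNC2 was 85.5 RPKM against 16.3 for TNNC1, and TNNI2 was 56.9 RPKM against 9.41 for TNNI1. MHLBA replicate 3 lay between, with the slow gene higher in 3 of 6 pairs and sums of 198 and 167 RPKM. With MYHC-ALPHA in place of MHC-1, chosen after the values were seen, the slow gene was higher in 6, 1 and 2 of the 6 pairs in MHPJ replicate 2, MHLBJ replicate 1 and MHLBA replicate 3, and the slow sums were 843, 84.0 and 176 RPKM. MYH1, the fast glycolytic heavy chain, was 0.66, 6.47 and 0.20 RPKM in MHPJ replicate 2, MHLBJ replicate 1 and MHLBA replicate 3. Each of these is a single library, so the differences have no replicate check.

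**Figure D5:**
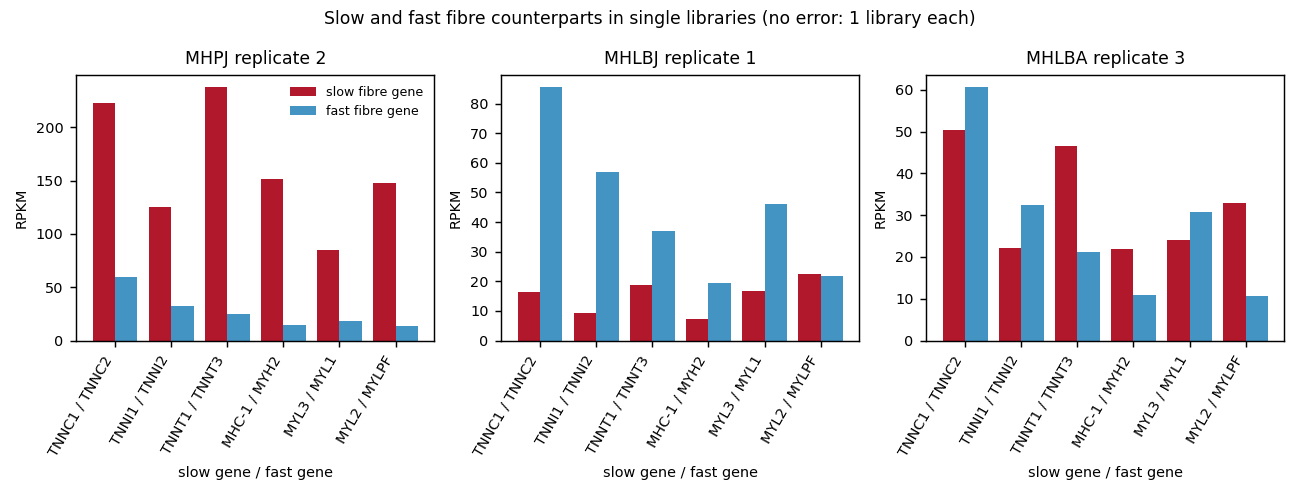
RPKM of slow (red) and fast (blue) fibre counterparts in the 3 libraries rich in sarcomere genes, 1 library a panel and so without error bars; the vertical scales differ. All 6 slow genes exceed their fast partners in MHPJ replicate 2, 1 of 6 does in MHLBJ replicate 1 and 3 of 6 do in MHLBA replicate 3.

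The 8 genes of the heart list, which does not hold MYHC-ALPHA or the genes that heart shares with slow fibres, were not high as a sum in the libraries rich in the members. Their summed level was 26.6 RPKM in MHPJ replicate 2, within the range of 24.3 to 87.9 over the 12 pituitary libraries, and 6.68 and 5.34 RPKM in MHLBJ replicate 1 and MHLBA replicate 3, within 4.54 to 9.60 in long bone. The cardiac troponin I gene TNNI3 made up most of it, at 13.9 to 84.7 RPKM in pituitary. Named after their values were seen, the cardiac actin ACTC1 was 0.51, 0.31 and 0.19 RPKM in the 3 libraries, and the atrial light chain MYL7 was at 0 in all 3. The natriuretic peptide gene NPPA was 0.00, 0.08 and 0.00 RPKM there. MYHC-ALPHA, described as the heart myosin, was on the contrary highest in MHPJ replicate 2, at 24.7 RPKM.

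Genes of developing and regenerating muscle were low in every long bone library. The 6 myogenic regulators and muscle stem cell genes summed to at most 1.17 RPKM in long bone. In MHPJ replicate 2 they summed to 2.58 RPKM, of which MYF6, the regulator kept in mature fibres, gave 1.64. MYOD1 was at 0.05, 0.00 and 0.00 RPKM in the 3 libraries. The highest sum, 25.1 RPKM in MHPA replicate 2, was almost all PAX7 at 24.9, in a library where CKM was 0.21 RPKM. The developmental myosins MYH3 and MYH8 together reached at most 1.57 RPKM in any library.

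Genes of smooth muscle, fat and tendon were also high in the pituitary library rich in the members. In MHPJ replicate 2 the 9 smooth muscle genes summed to 596 RPKM, of which 278 was SMTN, against 42.3 and 65.1 in MHPJ replicates 1 and 3. The next pituitary sums were 265 in MHPA replicate 3 and 220 in DPPA replicate 1, where CKM was 2.13 and 0.48 RPKM. Without SMTN the sum was 318 in MHPJ replicate 2 and 260 in MHPA replicate 3. The 6 adipocyte genes summed to 110 RPKM against 6.09 and 4.88, with LPL at 67.8 and FABP4 at 41.1, although ADIPOQ was 0.47 and PLIN1 0.04. The 5 tendon genes summed to 106 RPKM, with THBS4 at 64.0, and no other pituitary library exceeded 24.2. The neuronal gene SNAP25 was 6.12 RPKM in MHPJ replicate 2 and 54.0 to 487 in the other pituitary libraries, while the myelin gene MBP was 2379. LPL is also expressed by striated muscle, and the source of these transcripts was not tested. In long bone the smooth muscle sum was highest in MHLBA replicate 2, at 850 RPKM, where the 7 members summed to 20.6 CPM, and tendon genes were highest in DPLBA replicate 2, at 334 RPKM, where they summed to 15.8 CPM. The adipocyte sum was highest in MHLBJ replicate 1 and MHLBA replicate 3, at 9503 and 8947 RPKM, followed by MHLBJ replicate 2 at 7923 RPKM.

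Some striated muscle genes were high in long bone without the members. TNNI2 was 54.0 RPKM in DPLBJ replicate 2, near its 56.9 in MHLBJ replicate 1, and 9.95, 7.52 and 6.99 in DPLBJ replicate 3 and DPLBA replicates 1 and 3, all libraries with at least 668 RPKM of COL2A1. In these libraries TNNC2 was 0.83 to 2.16 RPKM and CKM at most 0.32. MYL3 was 35.1 RPKM in DPLBA replicate 3, above its 16.7 and 24.01 in MHLBJ replicate 1 and MHLBA replicate 3. The part of cartilage in the levels of TNNI2, CAPN3 and MYL3 was not tested.

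The genes most like the members were found by Pearson's r between each gene's log2 CPM and the mean log2 CPM of the 9 members over the 24 libraries, among 14050 candidates. The 10 highest were LMOD2 (r = 0.95), MB (r = 0.94), ABRA (r = 0.94), MYH2 (r = 0.94), XIRP2 (r = 0.93), CSRP3 (r = 0.91), PPP1R3A (r = 0.89), KLHL41 (r = 0.87), CASQ1 (r = 0.86) and MYOZ2 (r = 0.86). Of these 10, 8 were on the lists of other striated muscle genes, as were 22 of the 50 highest. MB, the oxygen store myoglobin, was 46.2 RPKM in MHPJ replicate 2, 7.29 in MHLBJ replicate 1, 16.9 in MHLBA replicate 3 and at most 0.48 in the other 21 libraries. By Spearman's rho, on which the 3 high libraries weigh less, 1 of the 10 was among the 10 highest.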

How the data were processed

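The deposited raw read counts per gene and the deposited RPKM values, in which the authors scaled reads by gene length and library size, were read for 24 libraries. Per the labels and the methods of the study, rRNA was depleted, directional libraries were sequenced, and reads were placed on EquCab 3.0; the submitters' processing notes name bcl2fastq, TopHat2 and edgeR, the methods name Salmon, and the counting tool is not given in the sources used here. The members and the gene lists were chosen with earlier results of these data known. Pairs of groups were compared on the deposited counts with edgeR 4.0.16 (quasi-likelihood test, TMM, filterByExpr with a minimum count of 10) in R 4.3.3, and tissues with all 24 libraries in 1 fit. A DEG had an unadjusted P under 0.05 and a fold over 2, and Benjamini-Hochberg adjusted p-values covered all genes tested. A gene high in 1 library can fail the count filter. The test was run first on simulated counts. DESeq2 1.42.0 and limma 3.58.1 on log2(RPKM + 1) and log2(RPKM + 0.1) were alternatives, as were other scalings, no filter, a replicate block and leaving out each library. Levels between genes are in RPKM. Member RPKM lay within 0.366% of the value their reads give. Depth was 11433209 to 27007342 reads. With 3 animals a group, p-values measure the spread between their libraries, in which animal and sampled piece cannot be told apart. Between tissues, the p-values take the 24 libraries as independent.

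Named were all members, up to 4 called genes of each muscle list by mean CPM in a comparison, up to 4 genes of each marker list by mean RPKM, and the 10 genes most like the members. CHRNA1, CHRND, MYH2, MYL1, MYL2, TNNI2, MB, SYT1, ACTC1, MYL7, NPPA, MYOD1, PLIN1, CAPN3, TAGLN, COL2A1, KLHL40, TRIM54, LDB3 and others set beside them outside that rule were named after their values were seen. Same-numbered libraries deviated together in adult pituitary, DP against MH, where r was 0.62, 0.49 and 0.33 for the 3 numbers although the animals are of different breeds. No sequence is printed.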

Additional observations from a re-analysis of the deposited data

Results flagged for a closer look

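CMYA5, a gene of the striated muscle cytoskeleton, moved in opposite ways with stage in the pituitary of the 2 breeds, with no overlap in either. In DPs every juvenile library (72, 68 and 78 reads) lay below every adult library (243, 182 and 109 reads) in CPM, and the log2 ratio of the mean CPM, juvenile to adult, was -1.26. In MHs every juvenile library (376, 1384 and 283 reads) lay above every adult library (131, 61 and 40 reads), with a log2 ratio of 3.35. The difference between the breeds was not tested. MHPJ replicate 2 held the 1384 reads, and the 3 MHPJ libraries were poor in hormone genes. No group held more than 3 libraries, so no outlier test was made within groups.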

How the results depend on the processing

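Alternatives were other normalizations, filters, tools and left-out libraries. Of 154 counts of DEGs under alternatives, 93 stayed within 1.5 times the reported count. Of 1114 member fold changes, 1007 moved by less than the spread between replicates, a spread that includes the libraries rich in the members, and 83 changed sign, 26 of them in MH long bone and 21 between tissues. Numbers are given in the order juvenile pituitary, adult pituitary, juvenile long bone and adult long bone (DP against MH), then MH pituitary, DP pituitary, MH long bone and DP long bone (juvenile against adult), then tissues. With an adjusted p under 0.05 the counts were 4, 0, 0, 1, 0, 0, 0 and 0 in the first 8, with limma on log2(RPKM + 1) 4, 0, 4, 1, 3, 0, 0, 1 and 9, and with limma on log2(RPKM + 0.1) 5, 0, 6, 1, 3, 0 and 0 in the first 7. Leaving out 1 library at a time gave 16 to 32, 1 to 5, 8 to 25, 4 to 11, 7 to 19, 2 to 4, 0 to 10, 1 to 6 and 16 to 27. Without the low-count filter the counts were 18 in adult long bone, 23 in MH pituitary, 2 in MH long bone and 5 in DP long bone. With all 12 libraries of a tissue in the fit they were 2 in adult pituitary, 13 in adult long bone, 23 in MH pituitary, 2 in DP pituitary and 3 in MH long bone. Library size alone gave 2 in adult pituitary, 2 in DP pituitary (1 higher and 1 lower, against 1 and 3) and, in adult long bone, 1 higher and 5 lower against 2 and 5. DESeq2 gave 3 in adult pituitary and 3 in MH long bone. With the replicate block the counts were 5 in adult pituitary, 2 in DP pituitary and 0 in MH long bone. Elsewhere the block kept the count within 1.5 times, and outside adult pituitary the replicates of the compared groups share only a number, except that both tissues came from the same animals, with no source for which numbers match. Chosen after seeing the data, leaving out both MHLBJ replicate 1 and MHLBA replicate 3 gave 4 in MH long bone. Libraries whose removal moved a count by over 1.5 times, beside those named in the report, were DPPJ 1 (16) in juvenile pituitary, DPPA 1 (5), MHPA 1 (4) and MHPA 2 (3) in adult pituitary, DPLBA 1 and 3 (4 each) in adult long bone, MHPA 2 (8) and 3 (7) in MH pituitary, DPPA 1 (2) in DP pituitary, MHLBA 2 and MHLBJ 3 (2 each) in MH long bone, and DPLBA 2 (5), DPLBA 3 (1), DPLBJ 1 (6) and DPLBJ 3 (1) in DP long bone. Of the 10 genes most like the members, 6 were shared when only long bone libraries were used, 0 with pituitary libraries and 7 on log2(RPKM + 1). The cause of these changes was not tested. At most 3 reads were counted for TNNT3 in 8 of 11 pituitary libraries and for CKM in 4 of 10 long bone libraries, leaving out the 3 rich in the members.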
